A study of Mus musculus with 6 samples.

Results

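The baseline methylation of cardiac promoters was described in embryonic cardiomyocytes that had received negative siRNA, a control small interfering RNA. All CpG dinucleotides with at least 10 cytosine calls in each of the 3 negative siRNA cultures were taken, out of 6 cultures in the series. This gave 314 of the 355 listed CpG, at 310 distinct genome positions, in 26 of 30 amplicon entries of 15 genes. Cells came from the ventricles of CD-1 mice, an outbred strain, at embryonic day 13.5, the tissue of a litter being pooled. They were transfected with 12 nM negative siRNA and harvested after 72 h, and were then sorted with an antibody against VCAM1. It is not stated whether the 3 cultures, which the labels number as replicates, came from separate litters. Every spread below is therefore that between these cultures only. The p-values set differences between regions, or between kinds of cytosine, against that spread and reach no further than these cultures. Only promoter methylation was measured, so the labelled cell type was not checked against its markers here.

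DNA methylation in mammals sits mostly on the cytosine of CpG, a dinucleotide that reads the same on both strands, and the methyltransferase DNMT1 copies it onto the new strand after replication. Most CpG in a mammalian genome are isolated and methylated, whereas CpG islands, stretches rich in G, C and CpG that often lie at promoters, are mostly kept free of methylation. In the heart, promoters of contractile proteins and natriuretic peptides are active in cardiomyocytes, while inhibitors of cyclin-dependent kinases restrain their division. Bisulfite treatment turns unmethylated cytosine into uracil, which is read as T. The percent of calls that remain C is therefore the methylation level of a cytosine.

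The contrast in CpG content between the amplicons is visible in the sequence itself. On GRCm38.p6, 300 bases of Camta1 region 1 (chr4:151862156-151862455, minus strand) and of Cdkn1c region 1 (chr7:143461142-143461441, minus strand) are set beside 250 bases of Tnnt2 region 2 (chr1:135835189-135835438, plus strand). All these stretches lie upstream of the transcription start, read 5′ to 3′ in the direction of the gene, and have each CpG in capitals. The Camta1 stretch is dense in CpG and was almost unmethylated, the Cdkn1c stretch is as dense and was methylated at intermediate levels, and the Tnnt2 stretch is sparse in CpG and was highly methylated.
Camta1 region 1: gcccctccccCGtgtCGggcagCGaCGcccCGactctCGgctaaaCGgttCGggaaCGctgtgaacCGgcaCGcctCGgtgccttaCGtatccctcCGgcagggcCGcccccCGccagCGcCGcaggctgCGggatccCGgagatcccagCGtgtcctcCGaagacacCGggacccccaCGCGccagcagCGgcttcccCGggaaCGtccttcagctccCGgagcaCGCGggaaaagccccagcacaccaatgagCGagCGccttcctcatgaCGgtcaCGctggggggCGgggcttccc
Cdkn1c region 1: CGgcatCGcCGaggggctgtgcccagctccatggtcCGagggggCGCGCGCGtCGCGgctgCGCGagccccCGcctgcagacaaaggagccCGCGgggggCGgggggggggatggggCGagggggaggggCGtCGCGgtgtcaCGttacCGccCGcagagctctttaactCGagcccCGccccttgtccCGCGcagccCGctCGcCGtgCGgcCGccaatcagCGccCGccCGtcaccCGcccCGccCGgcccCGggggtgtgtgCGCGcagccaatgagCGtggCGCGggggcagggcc
Tnnt2 region 2: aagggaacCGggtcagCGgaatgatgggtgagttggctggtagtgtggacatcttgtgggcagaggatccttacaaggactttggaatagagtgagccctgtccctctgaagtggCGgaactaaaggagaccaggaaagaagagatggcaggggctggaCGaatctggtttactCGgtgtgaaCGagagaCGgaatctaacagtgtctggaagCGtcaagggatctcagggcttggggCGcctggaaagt

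The 3 libraries held 28535010, 30242403 and 30927206 cytosine calls, with a median coverage of the kept CpG between 7427.5 and 8303.5 calls. At these medians, 3 calls correspond to a level between 0.0361% and 0.0404%. The 95% Wilson interval of a single site in a single culture had a median width of 0.961 percentage points, and the widest was 33.5 points. Calls were counted without molecular identifiers, so intervals and floors cover counting error only. No cytosine had a call in the entries for region 2 of the 3 kinase inhibitors Cdkn1a, Cdkn1b and Cdkn1c or for region 2 of Mef2c, which list 35 CpG, and 6 CpG of the other amplicons were under the coverage minimum. The entry named Cdkn1c region 2 has the sequence positions of Cdkn1b, at chr6:134919575-134919948.

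Over all kept sites, the mean methylation level was 23.7%, 23.0% and 23.3% in the 3 cultures, or 23.3% ± 0.359 (SD, n = 3). With each amplicon counted equally the mean was 36.9%, since the amplicons with many CpG were the less methylated ones. Of the 314 CpG, 165 were low (mean under 10%), 125 were intermediate and 24 were high (80% or more). The extremes were well filled, with 118 CpG at or under 1% and 13 at 90% or more, and the median site stood at 8.60%. The amplicon accounted for 81.7% of the variance of the level over sites and cultures. The differences between sites of the same amplicon made up 17.4%, and the differences between cultures 0.821%.

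The 12 sarcomere amplicons, which belong to the genes of myosin heavy chains and cardiac troponins, carried the most methylation. Their 71 CpG had a mean of 57.2% ± 0.875 (SD, n = 3), with 6 low, 46 intermediate and 19 high sites. The 33 CpG of the natriuretic peptide genes Nppa and Nppb averaged 27.6% ± 2.87, and 14 of them were low. The 83 CpG of the cyclin-dependent kinase inhibitors averaged 18.6% ± 1.94, with 34 low, 49 intermediate and 0 high. The transcription regulators Camta1, Camta2, Mef2c and Mef2d had 111 low sites among 127 and a mean of 6.43% ± 0.263. Each group was itself mixed, since its amplicons ranged from 8.76% to 90.5% for the sarcomere and from 0.179% to 82.0% for the transcription regulators. The groups also differ in base composition, as no sarcomere or natriuretic peptide amplicon was like a CpG island. Most CpG of the kinase inhibitors (54 in Cdkn1c region 1, 24 in Cdkn1b region 1) lay in island-like amplicons. So did most of the transcription regulators (44 in Camta1 region 1, 34 in Camta2 region 1, 17 in Mef2d region 1). Gene group and CpG content cannot be told apart in these means.

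Tnnc1 region 1, upstream of the gene of cardiac troponin C, had the highest level of the 26 amplicons, with 89.7%, 90.4% and 91.3% in the 3 cultures. Of its 6 CpG, 5 were between 87.1% and 96.2%, and the remaining one, at chr14:31207533, stood at 73.9% ± 1.47. The amplicon also overlaps the annotated neighbouring gene Nisch. Tnnt2 region 2, upstream of the gene of cardiac troponin T, came next with 83.8%, 84.4% and 83.5%. Mef2c region 1, upstream of a transcription factor of heart development, followed with 80.6%, 82.0% and 83.5%. The values of Tnnt2 region 2 and Mef2c region 1 overlapped between cultures, whereas each value of Tnnc1 region 1 was above all of theirs. At the other end, Camta1 region 2, Camta2 region 1, Camta1 region 1 and Cdkn1b region 1 lay at 0.179% ± 0.0580, 0.226% ± 0.0307, 0.284% ± 0.0687 and 0.459% ± 0.182 (SD, n = 3). Their cultures overlapped from each amplicon to the next. Camta1 region 2 was thinly covered, with 46 to 1617 calls at a CpG in a culture. Its 46 calls without a C at a CpG allow a level of up to 6.52% there. The rank of Camta1 region 2 among these amplicons is therefore not settled. Over the whole order, 13 of the 25 pairs of adjacent amplicons overlapped in their culture values.

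**Figure D1:**
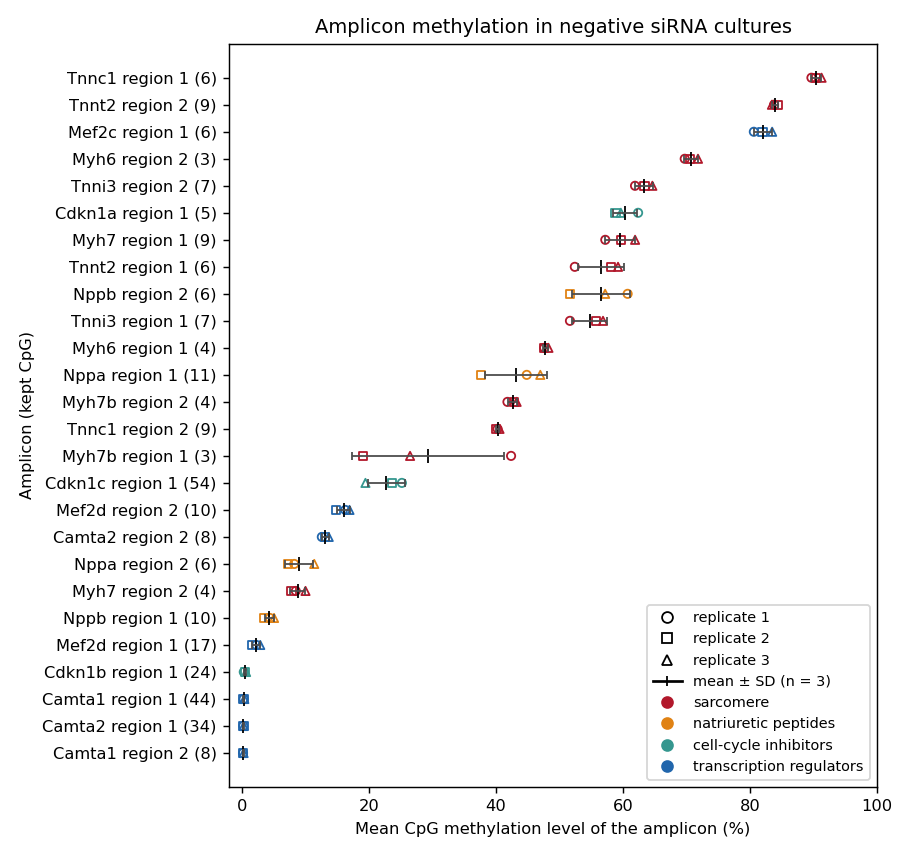
Mean CpG methylation level (%, x axis) of each of the 26 amplicons, in order, with the number of kept CpG in brackets. Open symbols are the 3 negative siRNA cultures, the vertical mark and bar give their mean ± SD, and colours give the gene group. The amplicons run from 90.5% in Tnnc1 region 1 to 0.179% in Camta1 region 2. The SD is over 3 points in 4 amplicons. It is largest in Myh7b region 1, where the cultures run from 19.1% to 42.4%, and the others are Nppa region 1 (37.6% to 47.0%), Nppb region 2 (51.7% to 60.7%) and Tnnt2 region 1 (52.4% to 59.2%).

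Cytosines outside CpG were used as the background, because they are rarely methylated in differentiated cells and a C there mostly shows failed conversion. Their level over all calls was 0.198%, 0.180% and 0.217% in the 3 cultures. In a paired limma test on the log2 ratio of methylated to unmethylated percent, with the culture as a block, the CpG were above the other cytosines of the same amplicon in 21 of 26 amplicons (80.8%, Benjamini-Hochberg adjusted p under 0.05), and 0 were below. At an unadjusted p under 0.05, 1 amplicon was below, Mef2d region 1. The smallest difference among the 21 was in Nppb region 1, with 4.32% against 0.799% (limma, adjusted p = 1.57e-05), and the largest adjusted p was 4.47e-05 in Myh7b region 1, with 29.3% against 0.803%. The exceptions were Camta1 region 1, Camta1 region 2, Camta2 region 1, Cdkn1b region 1 and Mef2d region 1, with adjusted p from 0.0566 to 0.945 in limma. Mef2d region 1 had 2.25% ± 0.628 in CpG and 2.97% ± 0.280 in the other cytosines. When only the other cytosines between the outermost kept CpG were used, a choice made after seeing the data, these were at 0.359%, and the CpG of Mef2d region 1 were higher (limma, adjusted p = 0.000428). The Mef2d mean includes the CpG chr3:88141683, at 21.8% from only 78 to 97 calls and 15 bp from an end of the listed cytosines. The median CpG of the amplicon was at 0.717%. A coverage minimum of 100 drops this CpG, and the difference from all other cytosines was then -0.561 points (limma, adjusted p = 0.00129), so the Mef2d direction is not settled. The choice of inner cytosines put Cdkn1b region 1 above its background by 0.261 points (limma, adjusted p = 0.0247), and 23 amplicons were then called. The Cdkn1b mean includes the CpG chr6:134919846, at 0%, 4.55% and 8.70% from only 22 to 26 calls. With a coverage minimum of 100 in place of this choice, the difference was 0.0731 points (limma, adjusted p = 0.0230). The CpG of both Camta1 regions and of Camta2 region 1 were not called above the background with all other cytosines or with the inner ones. With coverage-weighted means, Camta1 region 2 was called above it by 0.126 points (limma, adjusted p = 0.0175) and Camta2 region 1 by 0.0474 points (limma, adjusted p = 0.0478).

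Amplicons with more CpG were on average less methylated. Across the 26 amplicons, the Pearson correlation of the mean level with the number of listed CpG was -0.460, and Spearman's rho was -0.514. It ranged from -0.437 to -0.477 (Pearson) between the cultures. These amplicons share libraries and some share a gene or bases, so the correlations are descriptive. The GC content had a correlation of -0.539 with the level. Among the 21 amplicons with fewer than 12 CpG the correlation with the number of CpG was -0.238, and their means still ran from 0.179% in Camta1 region 2 to 90.5% in Tnnc1 region 1. A pair of amplicons with 9 listed CpG each, Tnnt2 region 2 and Camta1 region 2, differed from 83.9% to 0.179%.

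The 5 amplicons with the base composition of a CpG island (over 50% GC and an observed to expected CpG ratio over 0.6) were Camta1 region 1, Camta2 region 1, Cdkn1b region 1, Mef2d region 1 and Cdkn1c region 1. Together they held 173 of the 314 sites, of which 128 were low, 45 intermediate and 0 high, with a mean of 7.50% ± 0.837 (SD, n = 3). The 141 sites of the other 21 amplicons averaged 42.8% ± 1.07, with 37 low, 80 intermediate and 24 high. Of the 44 CpG of Camta1 region 1, 42 were at or under 1%, as were all 34 of Camta2 region 1 and 22 of 24 of Cdkn1b region 1. CAMTA1 and CAMTA2 are calmodulin-binding transcription activators and Cdkn1b encodes the cell-cycle inhibitor p27. Over all amplicons, a level of 0 in all 3 cultures was read at 5 CpG. They lie in Camta1 region 1 and in Camta1 region 2, which does not have island composition. These 5 CpG had 46 to 462 calls in a culture, which allows levels of up to 0.649% to 6.52%.

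Cdkn1c region 1 stood apart from the other island-like amplicons. Cdkn1c encodes the cell-cycle inhibitor p57 and is an imprinted gene, expressed mainly from the maternal allele. It had the most CpG of the amplicons, 55 listed and 54 kept, and a mean of 25.2%, 23.6% and 19.4% in the 3 cultures. Of the 54 CpG, 44 were intermediate and 10 low, from 6.50% to 46.6%. The level varied along the 414 bp span, which ends at position -29 from the transcription start. The 10 CpG in the first 100 bp had a mean of 35.0% ± 3.11. The 16 CpG of the next 100 bp had 21.2% ± 2.49, including 3 neighbours between 6.76% and 9.59% at positions 151 to 160 of the amplicon. The 16 CpG of the following 100 bp had 22.0% ± 3.78, and the last 12 had 15.6% ± 2.59. In 36 of the 54 CpG the cultures ranked in the same order, with replicate 1 highest and replicate 3 lowest. Without Cdkn1c region 1 the correlation of level and number of CpG was -0.531 over 25 amplicons.

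**Figure D2:**
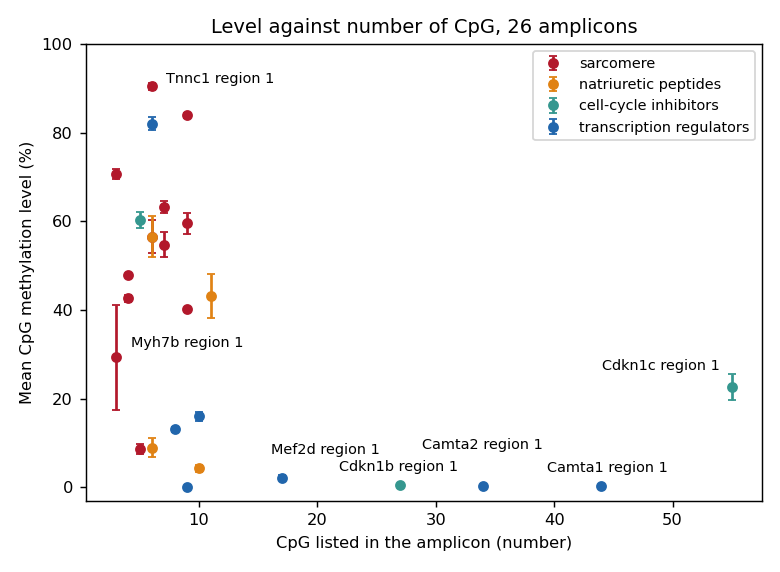
Mean CpG methylation level (%, y axis) against the number of CpG listed in the amplicon (x axis), for 26 amplicons with the SD between 3 cultures as bars and the gene group as colour. Amplicons with few CpG fill the range from 0.179% to 90.5%, the dense ones lie near 0 except Cdkn1c region 1 at 22.7%, and the points of Tnnt2 region 1 and Nppb region 2 cover each other.

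The paired regions of a gene differed in level. In 11 genes with both regions measured, a limma test on the same log2 scale with the culture as a block called all 11 (100%, adjusted p under 0.05), 4 with region 1 higher (36.4%) and 7 with region 1 lower (63.6%). Region numbers follow the labels and do not stand for a fixed distance from the start. The largest gap was in Nppb, the gene of brain natriuretic peptide. Region 1, the part nearer to the start, had 4.39%, 3.52% and 5.04%, and region 2 had 60.7%, 51.7% and 57.2%, a difference of -52.2 points ± 4.09 (limma, adjusted p = 1.49e-07). In Myh7, the gene of beta-myosin heavy chain, the far region 1 was at 59.6% ± 2.35 and region 2, which reaches the start, at 8.76% ± 1.13 (difference 50.8 points ± 1.81, limma adjusted p = 1.49e-07). Nppa, the gene of atrial natriuretic peptide, had the opposite arrangement. Its region 1, which spans the start, was at 43.1% ± 4.92, and its upstream region 2 at 8.95% ± 2.15 (difference 34.2 points ± 3.37, limma adjusted p = 9.22e-07). In Tnnc1 the region nearer to the start was also the higher one, with 90.5% ± 0.802 against 40.3% ± 0.275.

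Camta2, Mef2d, Tnnt2 and Myh6, the gene of alpha-myosin heavy chain, were each lower in region 1, by 12.9, 13.8, 27.3 and 22.9 points, in 3 of 3 cultures. The Mef2d regions overlap, and 4 CpG count in both of their means. Tnni3, the gene of cardiac troponin I, was lower in region 1 by 8.55 points ± 1.47. Without replicate 3 the Tnni3 call was lost (difference -8.94 points, limma adjusted p = 0.0792). The Myh7b call rested on a spread of the opposite sign in 1 culture. Myh7b encodes a further myosin heavy chain, and its region 1 had 42.4%, 19.1% and 26.5% against 41.8%, 42.8% and 43.3% in region 2, so that replicates 2 and 3 were lower in region 1 and replicate 1 was not (limma, adjusted p = 0.0303). This call was lost on the scale of percentage points (limma, adjusted p = 0.153) and with a coverage minimum of 1 (limma, adjusted p = 0.0929). The Camta1 call was for 0.284% against 0.179%, values that were not called above the background of their own amplicons with unweighted means. Its direction was reversed with a coverage minimum of 1 or of 100 and with coverage-weighted means.

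By distance from the nearest annotated start of the target gene, the median site level was 62.0% more than 1000 bp upstream (20 CpG, 5 amplicons) and 11.1% from 1000 to over 500 bp upstream (75 CpG, 14 amplicons), or 19.7% in the latter with a coverage minimum of 100. It was 1.35% from 500 to over 250 bp upstream (119 CpG, 13 amplicons), 12.8% within 250 bp upstream (71 CpG, 12 amplicons) and 0.429% at or beyond the start (29 CpG, 5 amplicons). Without Cdkn1c region 1, the median from 500 to over 250 bp upstream was 0.538% (93 CpG) and that within 250 bp upstream 4.48% (43 CpG). These medians include the dense amplicons. They also count as upstream some CpG inside the Tnni3 gene, because distances are to the nearest start of any of its transcripts. All listed cytosines of Tnni3 region 2 (positions -489 to -55) and the Tnni3 region 1 CpG at position -1 are annotated as intron. In the 21 amplicons without island composition, the medians in the same order were 62.0%, 57.6%, 14.6%, 33.8% and 56.9%. Of the 4 such amplicons with CpG at or beyond a start, Tnni3 region 1 and Myh6 region 1 lie near starts of transcripts that begin within the gene. Even there the level did not have 1 direction with distance, and within the 15 amplicons with at least 5 CpG and a mean over 5%, the rank correlation of level and position towards the gene was negative in 8 and positive in 7.

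Nppb region 2, Tnnt2 region 1 and Mef2d region 2 were less methylated towards the gene. Nppb region 2 went from 93.1%, 89.2% and 92.7% at chr4:147984672, position -1116 from the transcription start, to 26.8%, 17.6% and 26.5% at chr4:147985002, position -786. The 161 bases at chr4:147984851-147985011 (plus strand) hold the last 5 of its 6 CpG, whose means were 73.5%, 62.3%, 39.7%, 48.5% and 23.6% in order.
Nppb region 2: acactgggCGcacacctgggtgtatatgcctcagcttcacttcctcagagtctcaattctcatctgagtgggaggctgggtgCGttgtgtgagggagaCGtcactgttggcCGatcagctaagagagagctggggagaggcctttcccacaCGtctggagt
Tnnt2 region 1 went from 91.5% ± 0.653 at chr1:135835681 to 11.6% ± 0.573 at chr1:135836007, positions -673 and -347 from the start. The latter CpG was the farthest from its amplicon's median of the sites in amplicons over 20%, and the 95% Wilson intervals of its cultures overlapped. In Mef2d region 2 the levels were 40.6% and 58.5% at the 2 CpG farthest from the gene. They were 0.796% and 1.28% at the 2 nearest, at positions -641 and -638.

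Nppa region 1 had the reverse course across the transcription start. At positions -142 and -127 its CpG were at 9.97% ± 2.83 and 11.9% ± 3.41. The CpG at position -1 was at 13.5% ± 3.04, between neighbours at 34.8% and 37.9%. The 4 CpG in the 5′ untranslated region were between 37.9% and 63.9%, and the 2 in the coding sequence were at 54.0% and 90.5%. The last of these, at chr4:148000923, had 91.1%, 89.7% and 90.5% in the cultures, a narrower spread than that of the other 10 sites.

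Tnnc1 region 2 alternated instead of sloping. Its 3 CpG farthest from Tnnc1, at chr14:31206976 to chr14:31207002, were at 1.01%, 1.84% and 3.98%. They are the nearest to a protein-coding start of Nisch, a neighbouring gene transcribed the other way, at positions -150 to -176 from it. This amplicon, like Tnnc1 region 1, overlaps the annotated Nisch gene. The next CpG, 40 bp on, was at 71.2%, 68.8% and 71.9%, the largest step between neighbouring CpG in these data at 66.7 points ± 1.57 (SD of the difference, n = 3). The following 5 CpG were at 15.6%, 76.5%, 90.9%, 40.3% and 61.7%, with SDs between 0.912 and 2.19. They lie in the 235 bases at chr14:31207070-31207304 (plus strand), in which distances of 25 to 76 bp separate CpG of unlike level.
Tnnc1 region 2: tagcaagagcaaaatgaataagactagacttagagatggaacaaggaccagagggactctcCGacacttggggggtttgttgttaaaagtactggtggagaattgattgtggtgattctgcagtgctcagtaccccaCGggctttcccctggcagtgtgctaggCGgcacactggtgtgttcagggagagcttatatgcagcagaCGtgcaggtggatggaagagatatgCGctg

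**Figure D3:**
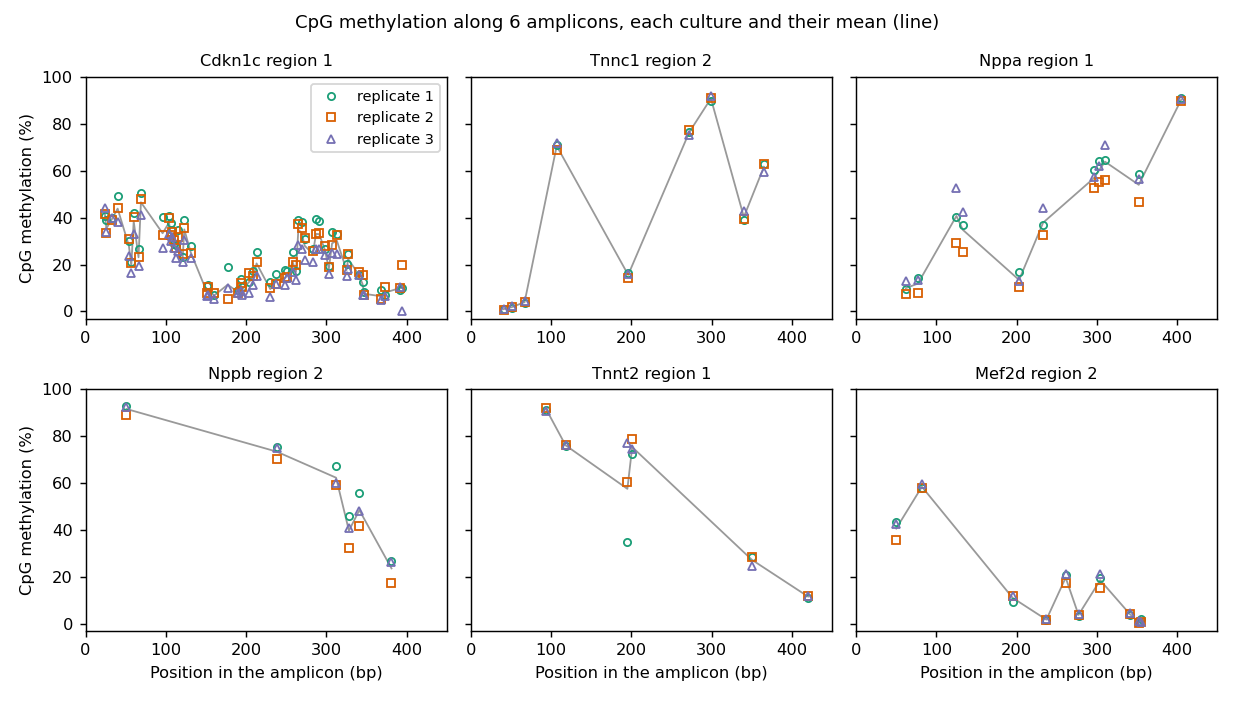
Methylation level (%, y axis) of each kept CpG against its position in the amplicon (bp, x axis, in the direction of transcription of the target gene) for 6 amplicons. Symbols are the 3 cultures and the line joins their means. Nppb region 2 goes from 91.7% to 23.6% and Nppa region 1 from 9.97% to 90.5%, Tnnc1 region 2 alternates, and in Tnnt2 region 1 the cultures separate at 1 CpG.

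Other sarcomere amplicons also held steps between neighbouring CpG. In Tnni3 region 2, which lies in an annotated intron and overlaps the neighbouring gene Dnaaf3, the level went from 84.5% to 28.6% over 58 bp, although these sites had only 126 to 178 calls. In Myh7 region 1, the CpG at chr14:54995566 was at 28.2% ± 1.68 while its neighbours were at 60.1% and 61.2%. The CpG of Tnni3 region 1 at chr7:4522529 was at 32.7% ± 4.90 while the amplicon's median was 61.1%. Over the 288 pairs of neighbouring CpG the median step was 2.19 points, and 0.769 points without Cdkn1c region 1. In amplicons over 5%, it was 4.53 points for gaps of 1 to 10 bp (59 pairs), 9.56 for 11 to 25 bp (30 pairs), 17.8 for 26 to 50 bp (29 pairs) and 18.2 for gaps over 50 bp (39 pairs). Cdkn1c region 1 held 42 of the pairs at 1 to 10 bp and 10 of those at 11 to 25 bp. Without it these medians were 5.78 (17 pairs), 11.9 (20 pairs), 18.2 (28 pairs) and 18.2 points (39 pairs). Steps over 20 points were found in 38 pairs, all in amplicons over 5%, and 3 of them were between CpG at most 10 bp apart. In 134 of the 157 pairs of these amplicons the step had the same sign in all 3 cultures.

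**Figure D4:**
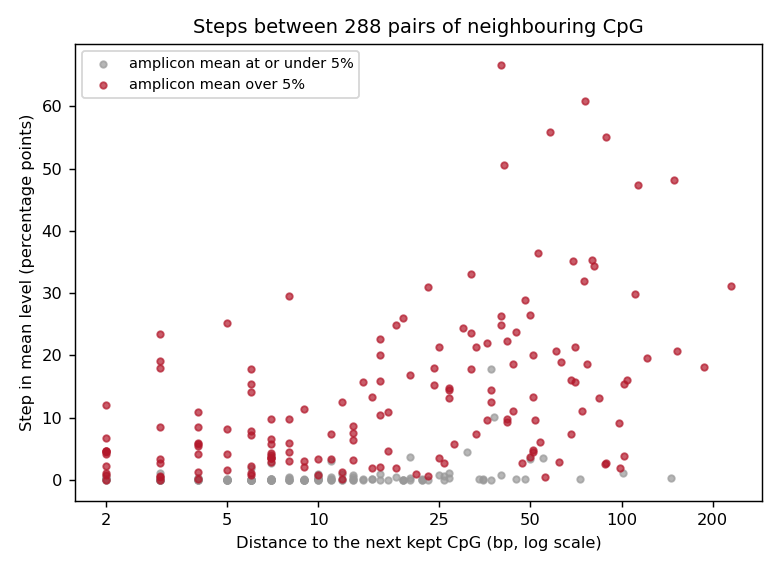
Step in mean level between neighbouring kept CpG (percentage points, y axis) against their distance (bp, log scale, x axis) for 288 pairs, coloured by whether the amplicon mean was over 5%. Short distances hold mostly small steps, and the largest, 66.7 points over 40 bp, is in Tnnc1 region 2.

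The cultures differed little at most sites. The SD between cultures had a median of 0.649 points over the 314 CpG, or 0.342 to 0.451 with any culture left out. It was 0.0971 in low, 3.04 in intermediate and 0.729 in high sites. The variance between cultures was a median of 5.10 times that of counting calls, or 2.56 to 3.71 times with any culture left out. Medians of an SD or of this ratio run lower with fewer cultures by construction. The values with a culture left out therefore do not test them. The variance exceeded that of counting at 248 sites and was over 10 times as large at 115. Counting error alone also puts part of the sites above it, so the 248 do not all show a difference between cultures. An SD over 5 points occurred at 26 sites, all intermediate. Amplicon means had a median SD of 1.06 points, and 21 of the 26 were highest in replicate 3. Of the 314 single CpG, 134 were highest in replicate 3, and the mean over all sites was highest in replicate 1 (23.7%). Neighbouring sites tended to deviate together between cultures, although not in every amplicon. The correlation of neighbouring sites' deviations from their site means was 0.511 over 102 pairs with both sites between 10% and 90%, and 47.6% of the culture variance was a shift shared by the sites of an amplicon. This part is weighted towards amplicons with many CpG or a large spread. In Myh7b region 1, with 3 CpG, a single site with an SD of 27.1 points enters it. The share that independent sites would give was not computed.

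The largest spread was at the CpG chr2:155611235 of Myh7b region 1, in the 5′ untranslated region 23 bp past the start, with 67.0%, 13.7% and 31.9%. Its neighbour 16 bp on had 57.4%, 41.1% and 45.3%, in the same order of cultures. The CpG 69 bp before it, upstream of the start, had 2.69%, 2.44% and 2.21%. All 3 sites had at least 2304 calls in every culture. The next largest was at chr1:135835782 in Tnnt2 region 1, with 35.1%, 60.5% and 77.1%. Here the CpG 6 bp away did not share the spread and had 72.6%, 78.8% and 74.7%. Both are the last CpG of the stretch chr1:135835672-135835797 (plus strand), which holds 4 of the amplicon's 6 CpG.
Tnnt2 region 1: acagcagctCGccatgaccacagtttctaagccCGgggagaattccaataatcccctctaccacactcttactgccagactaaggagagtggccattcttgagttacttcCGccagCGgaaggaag
In Nppa region 1, the CpG chr4:148000643 had 40.2%, 29.2% and 52.9%, and its neighbour 8 bp on had 36.8%, 25.3% and 42.4%. In Nppb region 2 the CpG chr4:147984962 had 55.7%, 41.7% and 48.0%. These natriuretic peptide sites were lowest in replicate 2. The remaining sites of the 6 with the largest spread were thinly covered. At chr7:143461107 in Cdkn1c region 1, levels from 0% to 20% rested on 20, 20 and 11 calls, and the 0 of 11 calls allows a level of up to 27.3%. At chr7:4523235 in Tnni3 region 2, levels of 70.0%, 84.9% and 75.8% rested on 120 to 152 calls.

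**Figure D5:**
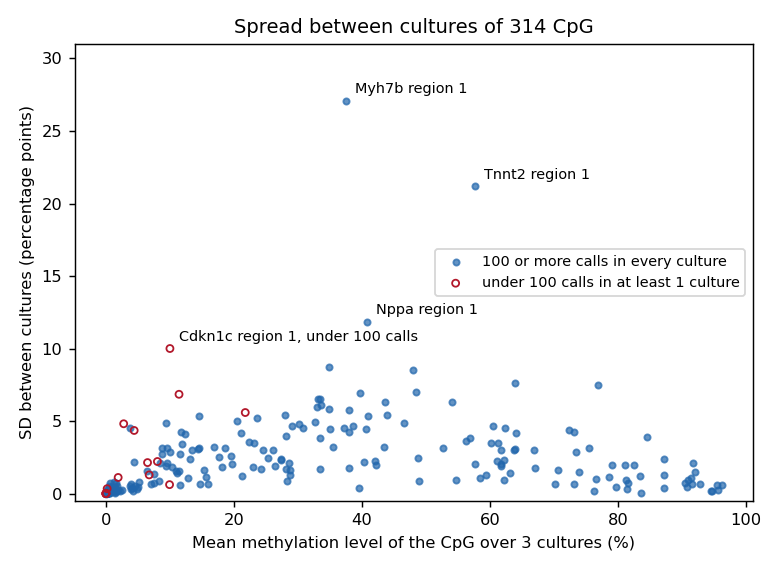
SD between the 3 cultures (percentage points, y axis) against the mean level (%, x axis) of each of the 314 CpG, with open symbols for sites under 100 calls in a culture. Sites near 0 and near 100% have small SDs, and the CpG of Myh7b region 1 (SD 27.1) and Tnnt2 region 1 (SD 21.2) lie above all others.

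A measure of repeatability within a culture came from Mef2d, whose amplicons overlap. The 71 bases at chr3:88141674-88141744 (plus strand) hold 4 CpG that were amplified and counted in both.
Mef2d region 2: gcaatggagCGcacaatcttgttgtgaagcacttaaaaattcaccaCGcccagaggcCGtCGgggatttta
At the first, chr3:88141683, region 1 gave 24.1%, 15.4% and 25.8% from 78 to 97 calls, and region 2 gave 19.4%, 15.2% and 21.2% from 2278 to 3712 calls. This was also the highest site of an otherwise low amplicon, region 1. At the other 3 positions the means of the amplicons differed by -0.118, 0.209 and -0.723 points.

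Some short motifs that contain CpG were looked up in the spans, on both strands. CACGTG, an E-box bound by basic helix-loop-helix factors, held a kept CpG in 3 amplicons, and occurs in 7.15% of 32851 mouse promoters of 300 bp from RefSeq on the table's build. Its CpG were at 2.44% ± 0.239 in Myh7b region 1 (chr2:155611156-155611176), 1.22% ± 0.356 in Nppb region 1 (chr4:147985356-147985376) and 37.9% ± 1.74 in Myh7b region 2 (chr2:155610812-155610832). The 21 bases around each are printed from the plus strand, and the CpG of the motif comes first in each.
Myh7b region 1: ggctgtgacaCGtggagattg
Nppb region 1: gtgaagtacaCGtgtggCGat
Myh7b region 2: acctttgacaCGtggttagtg
The Myh7b motifs have their CpG at positions -46 and -390 from the start, and the nearer was the least methylated CpG of its amplicon. GGGCGG, the core of the GC box bound by Sp factors, held 14 kept CpG in 5 amplicons, and it occurs in 35.7% of the promoters. The 8 in Cdkn1c region 1 ran from 6.50% to 33.1%. TGACG, the short site of CREB and ATF factors, held 14 CpG in 12 amplicons, from 0.133% in Camta1 region 1 to 90.8% in Tnnt2 region 2, and occurs in 20.8% of the promoters. The amplicons are longer than these 300 bp windows and many lie farther upstream, so the counts and shares cannot be compared. In the amplicons over 5%, 56 CpG preceded by G had a median deviation of 4.65 points from their amplicon's median, with 35 above it. The medians after A, C and T were -2.99, 0 and -2.12 points. Without Cdkn1c region 1, the median after G was 6.93 points (23 of 31 above) and that after C was -2.65 points.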

How the data were processed

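Per the labels and the methods of the study, bisulfite-converted DNA was amplified at 2 promoter regions of each of 15 genes, the products of a culture were pooled and tagmented, and the libraries were sequenced in a MiSeq run. The authors aligned the reads with Bismark to the converted amplicon sequences, and the submitters' processing notes also name FastQC, Bowtie2 and mm10. Program versions and any removal of PCR duplicates were not given in the sources used here. The deposited files give the coverage of each cytosine, as a count of its calls, beside the percent of C and of T among them. Incomplete conversion raises all levels.

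Each amplicon was located in GRCm38.p6 by matching its listed cytosines along the gene and 20000 bp on either side. All listed cytosines matched (100%), the best match elsewhere reached 19.8%, and annotation was from GENCODE vM21. A CpG needed 10 calls in all 3 cultures. Levels are the deposited percent, and means over sites are unweighted. Paired differences were tested with limma 3.58.1 (R 4.3.3) on log2 of methylated over unmethylated percent, each plus 0.05 points, with the culture as a block and Benjamini-Hochberg adjustment over 11 genes or 26 amplicons. The script was tested on simulated data. Python 3.11.15, numpy 2.4.6, scipy 1.17.1 and pandas 2.3.3 were used.

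Named sites were the 8 farthest from the median of an amplicon over 20%, the 3 highest in amplicons up to 5%, the 6 with the largest SD and the 6 largest steps, at most 1 per amplicon. The profiles of Nppa, Nppb, Tnnc1 and Mef2d were described after their values were seen. Members, gene groups and rules were chosen with earlier results of these data known. Alternatives were other coverage minimums, a correction for the level outside CpG, other weights, bounds, scales and offsets, no block, and leaving out each culture. The cultures given the other siRNA were not used.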

Additional observations from a re-analysis of the deposited data

Results flagged for a closer look

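Among 2251 cytosines outside CpG with at least 10 calls in all 3 cultures, 35 were at 5% or more in every culture. They stood out because they lie outside the main measurement and above the level of the remaining cytosines. They were spread over 18 amplicons, 34 of them lay within 30 bp of the first or last listed cytosine, and all 35 had under 1000 calls in at least 1 culture. The mean level outside CpG was 6.39% within 30 bp of these ends (210 cytosines) and 0.248% farther in (2041 cytosines). The highest, in Tnni3 region 2, had a mean of 95.5%, and Mef2d region 1 had sites at 84.3% and 68.4%. Of the kept CpG, 18 lay within the same 30 bp, among them the CpG of Mef2d region 1 at 21.8% and that of Tnnt2 region 1 at 11.6%. What these cytosines share with CpG near the ends was not tested.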

How the results depend on the processing

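Of the values answering a comparison, 130 stayed within their spread or within 1.5 times their count under an alternative, and 35 moved; the cause was not tested. The mean level of 23.3% was 24.2% with a coverage minimum of 100, 36.9% as a mean over amplicon means and 29.4% with coverage-weighted means. High sites numbered 38 with bounds of 20% and 70%. With the coverage minimum of 100, the medians were 19.7% from 1000 to over 500 bp upstream and 1.29% from 500 to over 250 bp upstream, the dispersion was 5.76 and the shared culture shift 50.3%. With a minimum of 1 that share was 44.1% and the median step 2.42 points. Spearman's rho of level and number of CpG was -0.538 with coverage-weighted means. By the nearest protein-coding start of any gene, the median from 500 to over 250 bp upstream was 1.66%. Without Cdkn1c region 1, r was -0.531 and the median step was 0.769 points over all gaps, 0.0836 at 1 to 10 bp and 0.472 at 11 to 25 bp. These last settings, and the inner cytosines, were chosen after seeing the data.

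Leaving out each culture gave medians of 1.33% to 1.34% from 500 to over 250 bp upstream and 11.9% to 14.0% within 250 bp upstream, median steps of 1.74 to 2.41 points over all gaps and 0.256 to 0.294 at 1 to 10 bp, a median SD of 0.342 to 0.451 and a dispersion of 2.56 to 3.71. The variance shares were 81.4% to 82.3% between amplicons, 17.2% to 18.0% within them and 0.498% to 0.694% between cultures, and the shared part was 47.5% to 47.7%. The median SD, the dispersion and the share between cultures run lower with fewer cultures by construction, so these ranges do not test them.

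The region comparison called 9 to 11 of 11 genes in all alternatives and the comparison with other cytosines 21 to 25 of 26 amplicons. With no replicate block they called 10 and 23, so the pairing by culture changed the Myh7b call, with an adjusted p of 0.0543 in limma. Myh7b was also lost with a coverage minimum of 1, an offset of 0.5 and the percentage-point scale (adjusted p in limma from 0.00710 to 0.153 over all alternatives). The Camta1 difference was -0.286, -0.0522 and -0.125 points with a minimum of 1, a minimum of 100 and coverage weights. Against other cytosines, Camta2 region 1 turned to 0.0352, 0.0474 and 0.0491 points with a minimum of 100, coverage weights and inner cytosines, and Camta1 region 2 to values between -0.0586 and 0.0609 without 1 replicate each. Its difference in points was -0.00274 with an offset of 0.5 and on the scale of points, as in the reported test, where the log2 estimate alone was positive. Camta1 region 1 turned to 0.000471 and Mef2d region 1 to 0.567 with coverage weights, and Mef2d region 1 to 1.89 with inner cytosines. Under some alternatives Camta1 region 1, Camta2 region 1 or Mef2d region 1 was called below the other cytosines. With coverage weights Camta2 region 1, Camta1 region 2 (0.126 points), Cdkn1b region 1 (0.0806 points) and Mef2d region 1 were called above them (limma, adjusted p from 0.000401 to 0.0478). Every one of these amplicons had under 3% in CpG.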
